A study of Mus musculus with 5 samples.

Results

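The genes described here make, sense and move cholesterol: 30 genes of the 22287 in the deposited table, chosen by name. They fall into 18 enzymes of cholesterol synthesis, 6 genes that control the transcription factor SREBP2, and 6 genes that move, store or limit the uptake of sterols. All 30 were found once in the table, and all 30 passed the filter on low values (a mean of at least 1 FPKM over the libraries). FPKM scales the sequenced fragments of a gene by its length and by the size of the library, so levels of different genes can be set side by side.

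The tissue was liver tumour from C57BL/6 mice that had received DEN, a liver carcinogen, together with CCl4, a liver toxicant, over 5 months. Tumours of 2 wild-type (WT) and 3 lnc-CTHCC-/- (KO) samples were sequenced, and both genotypes had the same treatment. lnc-CTHCC is a long non-coding RNA; its own transcript was not analysed here, so the genotypes were taken as labelled. Age, sex, the number of founder lines and whether each library came from its own animal are not given in the labels. The spread behind the p-values is that between these 5 samples and could be technical.

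Hepatocytes build cholesterol from acetyl-CoA by way of mevalonate, farnesyl diphosphate, squalene and lanosterol. When membranes of the endoplasmic reticulum are poor in sterol, the escort protein SCAP carries SREBP2 to the Golgi, where a pair of proteases release its transcription factor domain. That domain binds sterol regulatory elements in promoters of the synthesis genes, usually with the factors NF-Y and Sp1 at nearby sites. INSIG proteins hold SCAP back when sterol is plentiful, and the liver makes much of the body's cholesterol in this way.

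The promoter sequences below show these elements beside genes whose values are described afterwards. Capitals mark matches to the CCAAT box of NF-Y (CCAAT on either strand) and to the sterol regulatory element core TCACNCCAC with at most 1 mismatch, on either strand. Sequences come from RefSeq start sites on GRCm38.p6, are written along the gene from -200, and stop at -1 or before the first base that GENCODE vM21 places in an exon.

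Hmgcs1, chr13:119690151-119690350, plus strand, shown because it was the 1 member with an exact core match, at -137: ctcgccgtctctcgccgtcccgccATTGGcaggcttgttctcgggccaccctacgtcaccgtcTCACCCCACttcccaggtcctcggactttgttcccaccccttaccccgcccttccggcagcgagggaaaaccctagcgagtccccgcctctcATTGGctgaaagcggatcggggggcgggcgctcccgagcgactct
Srebf2, chr15:82147069-82147180, plus strand, shown as the gene of SREBP2 itself: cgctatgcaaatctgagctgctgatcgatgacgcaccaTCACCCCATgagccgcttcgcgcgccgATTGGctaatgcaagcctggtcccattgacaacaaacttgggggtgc
Cyp51, chr5:4104747-4104897, minus strand, shown for a core with 1 mismatch: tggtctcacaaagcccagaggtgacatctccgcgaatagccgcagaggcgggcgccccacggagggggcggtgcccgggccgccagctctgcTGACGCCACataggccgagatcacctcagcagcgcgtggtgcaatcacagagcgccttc
Mvd, chr8:122443423-122443622, minus strand, shown as the enzyme that varied most between the KO libraries: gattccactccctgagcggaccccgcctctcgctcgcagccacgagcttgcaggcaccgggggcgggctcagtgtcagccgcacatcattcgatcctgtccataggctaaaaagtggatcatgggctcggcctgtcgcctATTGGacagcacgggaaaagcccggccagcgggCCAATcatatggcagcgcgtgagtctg
Lss, chr10:76531405-76531587, plus strand, shown as a synthesis gene with a CCAAT box and no match to the sterol element core: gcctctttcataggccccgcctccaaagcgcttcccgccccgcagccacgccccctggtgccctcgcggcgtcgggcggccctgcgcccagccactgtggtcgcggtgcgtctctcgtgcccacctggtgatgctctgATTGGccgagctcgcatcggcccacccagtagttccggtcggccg
Insig2, chr1:121332590-121332789, minus strand, shown as a member whose values did not follow the synthesis enzymes: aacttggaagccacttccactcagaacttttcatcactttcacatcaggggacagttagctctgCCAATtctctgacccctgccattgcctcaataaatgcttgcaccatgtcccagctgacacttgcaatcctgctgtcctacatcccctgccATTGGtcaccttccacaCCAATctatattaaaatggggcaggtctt

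Of the 30 members, 24 had a promoter of 250 bases before to 50 after the start site in the RefSeq table, in 30 windows. The CCAAT box stood in 20 of these 30 windows, against 37.4% of all 32851 promoter windows, and in 14 of the 15 synthesis enzymes with a promoter. The GC box GGGCGG of Sp1, searched on both strands, stood in 25 of the 30 windows against 35.7% of all windows. The exact sterol element core stood in 1 of the 30 windows against 1.24% of all, and in 11 of 30 against 24.2% when 1 mismatch was allowed. No window held the E-box TCACGTGA, which stood in 0.974% of all windows. A sterol element match with 1 mismatch overlapped a GC box in a promoter of Insig2 and a CCAAT box in that of Msmo1. That Insig2 promoter, with its match at -11, belongs to another start site than the Insig2 sequence printed above. Insig2 was printed for its values, and whether its motifs go with them was not tested. Each match describes letters in a window, not a bound site.

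The libraries were alike in their totals. FPKM sums lay between 526229 (KO 1) and 552619 (WT 1), the depth in reads is unknown, and correlations between libraries on the log2(FPKM + 1) scale across genes lay between 0.965 and 0.984. Gene by gene, WT 1 held the lowest value in 46.7% and WT 2 the highest in 35.2% of all genes tested. After median-ratio rescaling those shares were 24.6% and 23.8%. Alb, the hepatocyte gene of serum albumin, took 14.1% to 17.1% of each FPKM sum. Of the 9 marker lists for hepatocytes and other cell types, no gene was listed at 0 in all libraries, and Ly6g, a neutrophil marker, was listed at 0 in some.

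None of the 30 members differed between KO and WT tumours by limma's test over 10132 genes. Across all genes, 0.00987% were called higher and 0.0% were called lower in KO at an adjusted p under 0.05. No member reached an unadjusted p under 0.05 either, which 3.23% of all genes did. The smallest unadjusted p of a member was 0.169 for Pmvk, and limma's adjusted p was 0.999 for each member. WT and KO values overlapped in every one of the 30 genes. Over all genes tested, the KO values all exceeded those of WT in 9.78% and all fell short of them in 5.29%, so that 15.1% had no overlap. In the authors' deposited table, which uses the same 5 libraries, 0 of the 30 members have a false discovery rate under 0.05. Among all 22287 genes of that table, 36 do. The smallest of the authors' p-values for a member is 0.192, for Sqle.

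On the log2(FPKM + 1) scale, the KO mean was above the WT mean in 21 of the 30 members and below it in 9, where 61.4% of all genes tested had a higher KO mean. Acat2 changed sides with the scale, with a log2 difference of -0.05 and a ratio of mean FPKM of 1.02. The median log2 difference was 0.06 over the members, 0.11 over the 18 synthesis enzymes and 0.05 over all genes tested. After median-ratio rescaling of the libraries the members were divided 16 higher to 14 lower, and 50.64% of all genes were higher. The 95% limma interval lay within 1 log2 unit on both sides of 0 in 25 of the 30 members. That bound is 2-fold on the FPKM + 1 scale. A larger share of all genes, 9391 of the 10132 tested, had such an interval. Among the members, the interval reached past the bound in Hmgcs1, Mvd, Idi1, Sqle and Tm7sf2.

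**Figure D1:**
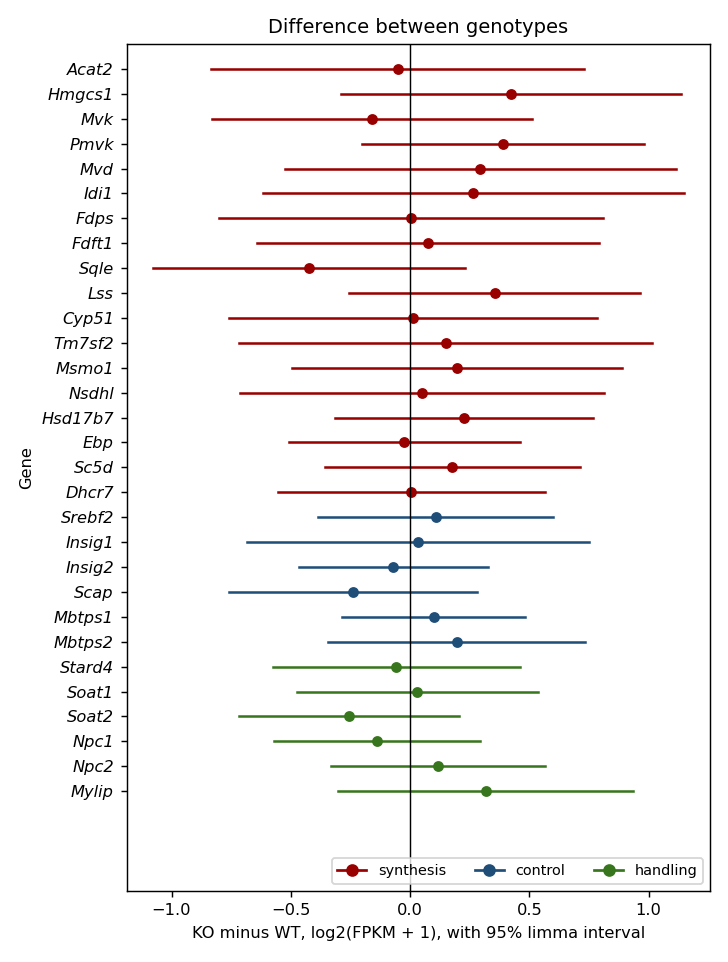
KO minus WT difference of each gene (x axis, log2(FPKM + 1), point) with its 95% limma interval (line), for 18 synthesis enzymes, 6 control genes and 6 handling genes (y axis, colours). All 30 intervals span 0, and those of the synthesis enzymes are wider (median half-width 0.70) than those of the control genes (0.51) or handling genes (0.49).

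In the synthesis enzymes, differences between KO libraries were larger than those between genotypes. All 18 synthesis enzymes had their highest value of the 5 libraries in KO 2, where 15.9% of all genes tested did. In 12 of the 18 the lowest value was that of KO 3, against 20.0% of all genes. Both held together for 12 enzymes, against 5.57% of all genes. Summed over the 18 enzymes, the level was 1025.6 FPKM in WT 1, 1158.5 in WT 2, 1088.4 in KO 1, 1716.1 in KO 2 and 812.44 in KO 3. Thus KO 2 stood at 2.11 times KO 3 and 1.48 times WT 2, while the WT libraries and KO 1 lay close together.

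This order of libraries was noticed in these data and is given as a description with no test. KO 2 lay above KO 3 by at least 1.5 times on the FPKM + 1 scale in 17 of the 18 enzymes, against 3.72% of all genes tested, and by at least 2 times in 12 of them, against 0.987%. The median log2 difference of KO 2 over KO 3 was 1.17 for the enzymes and 0.03 for all genes tested. KO 2 held the highest value in 18 enzymes after rescaling to a common sum, and in 17 after median-ratio rescaling or quantile normalization.

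**Figure D2:**
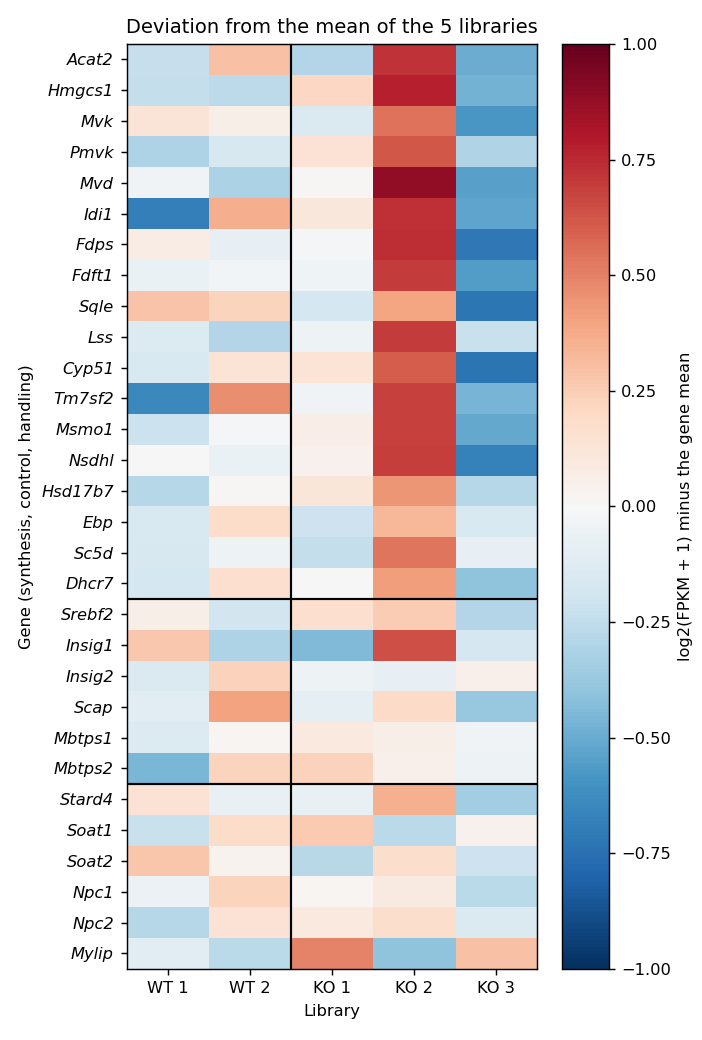
Deviation of log2(FPKM + 1) from the mean of the 5 libraries (colour) for each gene (rows, in 3 blocks of synthesis, control and handling genes) and library (columns). The synthesis block is red throughout in KO 2 and mostly blue in KO 3, and the control and handling blocks are paler and mixed.

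The first steps, from acetyl-CoA to farnesyl diphosphate, carried the widest swing, with a summed level in KO 2 that was 2.55 times that in KO 3. Acat2, which joins acetyl-CoA units to acetoacetyl-CoA (ENSMUSG00000023832, chromosome 17, 12942890 to 12960747, minus strand), had WT values of 21.10 and 30.65 FPKM and KO values of 20.14, 41.68 and 17.39 FPKM. Hmgcs1, the cytosolic HMG-CoA synthase (ENSMUSG00000093930, chromosome 13, 119690379 to 119708260, plus strand), measured 65.34 and 64.31 FPKM in WT against 89.46, 133.43 and 55.42 FPKM in KO. The WT pair was nearly level, and the KO values lay on both sides of it. The log2 difference of Hmgcs1, 0.42 (SE 0.31, interval -0.29 to 1.13), was the highest of the 30 and did not pass limma's test (adjusted p = 0.999).

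Mevalonate is then phosphorylated and decarboxylated. Mvk, mevalonate kinase, had WT values of 19.27 and 18.33 FPKM and KO values of 15.76, 25.93 and 11.36 FPKM. Pmvk, phosphomevalonate kinase, measured 13.45 and 15.06 FPKM in WT against 18.77, 26.60 and 13.58 FPKM in KO. Mvd, the decarboxylase that yields isopentenyl diphosphate, had WT values of 13.34 and 10.81 FPKM and KO values of 13.84, 26.18 and 9.09 FPKM. These enzymes have low levels for the pathway, and KO 2 was the high library in each. Mvd had the widest ratio of KO 2 to KO 3 of all members, 2.88 (ENSMUSG00000006517, chromosome 8, 122433601 to 122443422, minus strand).

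Idi1, the isomerase of isopentenyl diphosphate, measured 33.74 and 70.67 FPKM in WT against 59.23, 91.56 and 37.69 FPKM in KO. Here the WT libraries differed by 2.09 times, and WT 1, not KO 3, was the lowest, as in 46.7% of all genes tested. Fdps, which builds farnesyl diphosphate for sterols and for protein prenylation (ENSMUSG00000059743, chromosome 3, 89093588 to 89101959, minus strand), had WT values of 175.07 and 157.15 FPKM and KO values of 164.21, 278.64 and 100.61 FPKM. Its KO mean of 181.2 ± 90.22 FPKM (SD, n = 3) and WT mean of 166.1 ± 12.67 FPKM (SD, n = 2) differed by far less than the spread of KO. In the annotation 26.7% of its exon bases are shared with Gm43738 on the same strand, so its level is uncertain as far as reads could be split.

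**Figure D3:**
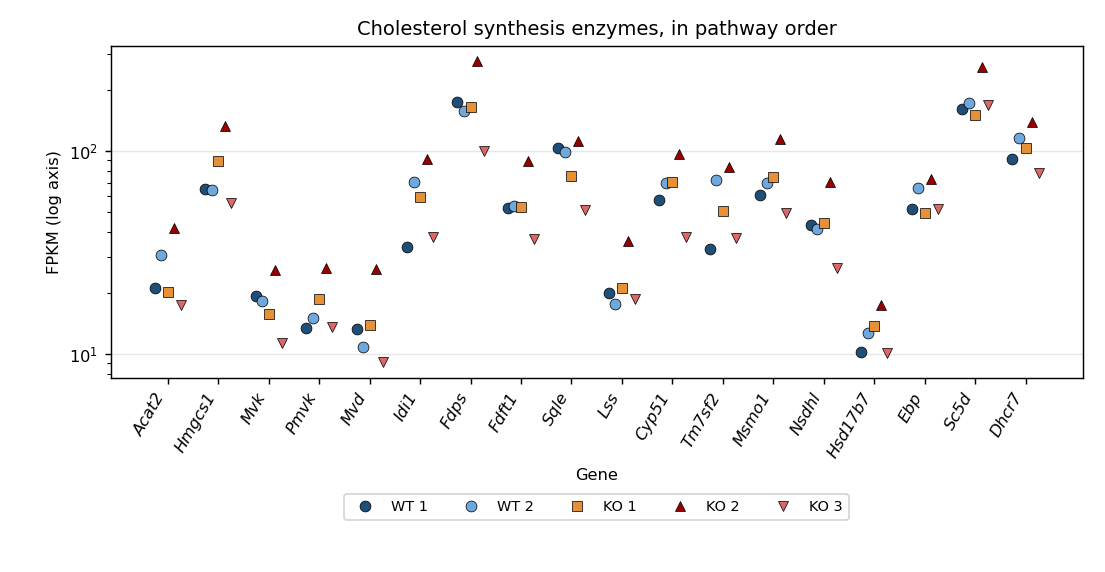
FPKM (y axis, log scale) of the 18 synthesis enzymes in pathway order (x axis), 1 point per library. The KO 2 points (dark red triangles) stand on top in all 18 enzymes, and the KO 3 points (pale inverted triangles) are lowest in 12.

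From farnesyl diphosphate to lanosterol, 3 enzymes make and close the sterol skeleton. Fdft1, squalene synthase, measured 52.39 and 53.82 FPKM in WT against 53.04, 89.45 and 36.82 FPKM in KO. Sqle, squalene epoxidase and a control point of the pathway (ENSMUSG00000022351, chromosome 15, 59315077 to 59331192, plus strand), had WT values of 103.84 and 99.30 FPKM and KO values of 75.04, 111.84 and 51.02 FPKM. Lss, lanosterol synthase, measured 19.90 and 17.72 FPKM in WT against 21.13, 36.14 and 18.65 FPKM in KO. The KO range of Sqle, alone among these 3, lay mostly below WT, while that of Lss lay mostly above. The log2 differences were -0.42 (SE 0.29) for Sqle, the lowest of the 30 members, and 0.35 (SE 0.27) for Lss, and neither passed limma's test (adjusted p = 0.999). Of the exon bases of Fdft1, 18.3% overlap Ctsb on the other strand, and whether fragments were counted by strand is not stated in the sources used here.

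After lanosterol, demethylation, reduction and isomerisation give cholesterol. The swing of the sum was smaller, with a summed level in KO 2 of 1.85 times that in KO 3. Ratios of single enzymes overlapped those of the first steps. They ranged from 1.4 to 2.64 (median 2.02) here and from 1.96 to 2.88 (median 2.41) there. Cyp51, the lanosterol demethylase, had WT values of 57.25 and 69.95 FPKM and KO values of 70.16, 97.35 and 37.89 FPKM. Tm7sf2, a sterol reductase that acts next, measured 32.95 and 72.05 FPKM in WT against 50.67, 83.90 and 37.36 FPKM in KO. Like Idi1, Tm7sf2 was lowest in WT 1 and differed between the WT libraries by more than its genotype means did. Msmo1, which oxidises sterol methyl groups, had WT values of 60.87 and 70.01 FPKM and KO values of 74.49, 114.28 and 49.46 FPKM. Nsdhl, the dehydrogenase of the same demethylation complex (chromosome X, 72918557 to 72958514, plus strand), measured 43.23 and 41.20 FPKM in WT against 44.32, 70.33 and 26.66 FPKM in KO. Its WT values and KO 1 were nearly level, and KO 2 was 2.64 times KO 3. Hsd17b7, the ketoreductase of that complex, had the lowest mean of the 18 enzymes, with 10.19 and 12.72 FPKM in WT against 13.77, 17.48 and 10.15 FPKM in KO.

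The last steps are isomerisation, desaturation and a final reduction. Ebp, the sterol isomerase, had WT values of 51.63 and 65.57 FPKM and KO values of 49.73, 72.55 and 51.79 FPKM, and its ratio of KO 2 to KO 3 of 1.4 was the smallest of the 18. Sc5d, the sterol desaturase, measured 160.42 and 172.82 FPKM in WT against 151.49, 260.10 and 169.60 FPKM in KO. It had the highest mean level of all members, 182.9 FPKM, and with Ebp it was the enzyme in which KO 1, not KO 3, lay lowest. Dhcr7, which forms cholesterol from its dehydro precursor, had WT values of 91.67 and 116.39 FPKM and KO values of 103.17, 138.67 and 77.90 FPKM. Among the enzymes, Sc5d and Fdps were followed in mean level by Dhcr7, Sqle and Hmgcs1. The low end of the pathway was formed by Pmvk, Mvd and Hsd17b7, whose means lay below 18 FPKM.

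The same spread can be given as the residual standard deviation on the log2(FPKM + 1) scale within genotypes. Its median was 0.50 for the 18 synthesis enzymes, 0.28 for the control genes, 0.25 for the handling genes and 0.21 for all genes tested. In 12 of the 18 enzymes it lay above the 90th percentile of all genes tested. This scale understates changes of low genes, and the sets differ in level. Their median mean level was 57.7, 22.5, 15.7 and 6.22 FPKM, in the same order. The part of level in these differences was not tested. The KO standard deviation of FPKM was larger than that of WT in 17 of the 18 enzymes, with Tm7sf2 as the exception. The same held in 2 of 6 control genes and 3 of 6 handling genes. This count rests on the same KO values as the order above, and its share over all genes was not computed. With 2 WT libraries, the spread of WT is itself poorly known.

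The control genes followed this order less closely than the enzymes. KO 2 was highest in 2 of 6, Srebf2 and Insig1, against 15.9% of all genes tested. It was highest in 3 of 6 after median-ratio rescaling (18.6% of all genes) or quantile normalization (16.4%). KO 2 lay above KO 3 in 5 of 6, and in 5463 of all 10132 genes tested. The median log2 difference of KO 2 over KO 3 was 0.32 for the control genes, against 1.17 for the enzymes. Srebf2, the gene of SREBP2 (ENSMUSG00000022463, chromosome 15, 82147181 to 82205379, plus strand), measured 11.93 and 9.96 FPKM in WT against 13.02, 13.81 and 9.15 FPKM in KO. Its libraries kept the order KO 2, KO 1, KO 3, but KO 2 was 1.51 times KO 3, less than in 17 of the 18 enzymes. Insig1, the SREBP2-induced retention protein (ENSMUSG00000045294, chromosome 5, 28071363 to 28078662, plus strand), had WT values of 103.89 and 69.30 FPKM and KO values of 63.24, 135.17 and 76.69 FPKM. KO 2 was again the high library, and KO 1, not KO 3, was the low one. Insig2, the other retention protein, measured 62.52 and 81.13 FPKM in WT against 66.77, 65.19 and 71.55 FPKM in KO, a KO range inside that of WT. As a result the ratio of Insig1 to Insig2 was 1.66 and 0.854 in WT and 0.947, 2.07 and 1.07 in KO.

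The genes that move and cut SREBP2 had smaller ratios of KO 2 to KO 3 than nearly all enzymes. Scap, the escort, had WT values of 27.71 and 39.97 FPKM and KO values of 28.01, 34.39 and 22.88 FPKM, with WT 2 highest. Mbtps1, the site-1 protease that makes the first cut, measured 13.06 and 14.63 FPKM in WT against 15.54, 15.07 and 14.05 FPKM in KO. Its residual standard deviation of 0.08 was the smallest of the 30 members. Mbtps2, the membrane protease that makes the next cut, had WT values of 1.63 and 3.20 FPKM and KO values of 3.24, 2.73 and 2.49 FPKM. Mbtps1 stood 4.57 to 8.01 times above Mbtps2 in FPKM in every library. Of the exon bases of Mbtps2, 28.4% are shared with Yy2 on the same strand, and its level is uncertain to that extent.

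**Figure D4:**
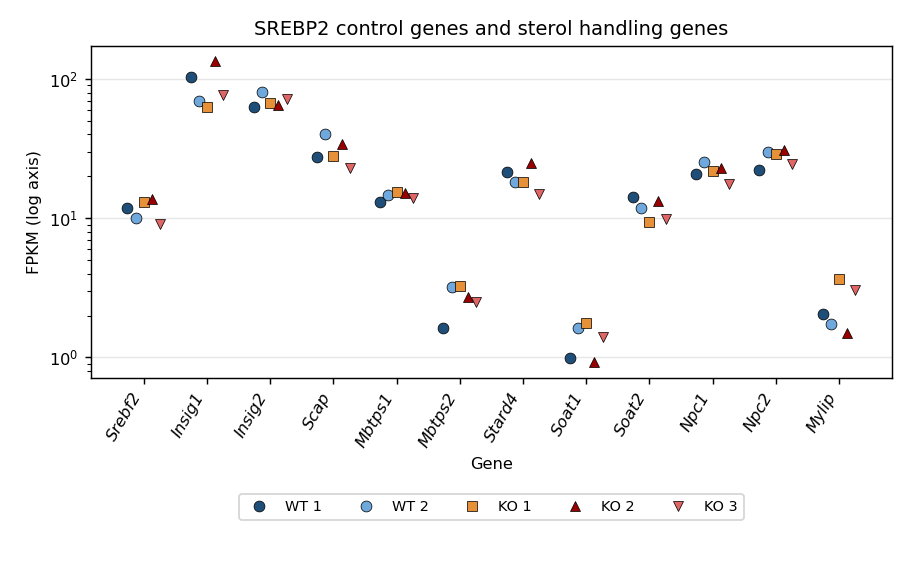
FPKM (y axis, log scale) of the 6 control genes and 6 handling genes (x axis), 1 point per library. KO 2 (dark red triangles) is highest in Srebf2, Insig1, Stard4 and Npc2 and lowest in Soat1 and Mylip.

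Among handling genes, Stard4, a sterol carrier of the cytosol, came nearest to the synthesis enzymes. It measured 21.43 and 18.33 FPKM in WT against 18.27, 25.07 and 14.96 FPKM in KO, again with KO 2 highest and KO 3 lowest. Npc1 and Npc2, which hand cholesterol out of lysosomes, differed less between KO libraries. Npc1 had WT values of 20.77 and 25.45 FPKM and KO values of 21.96, 23.09 and 17.76 FPKM. Npc2 measured 22.07 and 30.15 FPKM in WT against 29.16, 30.85 and 24.48 FPKM in KO. Npc2 stood 1.06 to 1.38 times above Npc1 in every library.

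Sterol storage rests on acyltransferases that esterify cholesterol. Soat2, the hepatocyte form, had WT values of 14.28 and 11.93 FPKM and KO values of 9.43, 13.29 and 9.95 FPKM. Soat1, the form of macrophages and many other cells, measured 0.99 and 1.63 FPKM in WT against 1.78, 0.92 and 1.39 FPKM in KO. Soat2 exceeded Soat1 by 5.30 to 14.4 times, and KO 2 was the lowest library in Soat1. Mylip, a ubiquitin ligase that targets lipoprotein receptors for breakdown and is induced by the oxysterol receptor LXR, had WT values of 2.06 and 1.73 FPKM and KO values of 3.65, 1.49 and 3.03 FPKM. In Mylip, KO 1 was the highest library and KO 2 the lowest, at 0.492 times KO 3. Levels of Soat1, Mylip and Mbtps2 were low, and differences of this size near 1 FPKM are imprecise.

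Cell markers moved between the same libraries. Summed FPKM of 8 macrophage and Kupffer cell markers was 57.1 and 77.2 in WT and 93.8, 51.1 and 96.0 in KO. KO 2 was lowest in 5 of these 8, against 11.9% of all genes tested. It was also lowest in 5 of 6 T and NK cell, 3 of 6 neutrophil, 2 of 8 hepatocyte and 1 of 7 endothelial markers. In each of the other lists it was lowest in 0. The T and NK cell markers summed to only 5.5 and 2.85 FPKM in WT and to 2.77, 1.04 and 1.44 FPKM in KO. Neutrophil markers summed to 6.43 and 6.07 FPKM in WT and to 7.23, 4.83 and 6.12 FPKM in KO. At such low levels these counts are imprecise. The 11.9% covers only genes with a mean of at least 1 FPKM, while the marker counts had no such filter. The 6 cholangiocyte markers summed to 150.0 and 423.7 FPKM in WT and to 333.9, 154.6 and 348.3 FPKM in KO. The 6 B and plasma cell markers summed to 91.98 and 243.55 FPKM in WT and to 67.1, 73.9 and 26.2 FPKM in KO. Their part in the order of the synthesis enzymes was not tested. The 8 hepatocyte markers summed to 124406 FPKM in KO 2 and 125547 FPKM in KO 3, a ratio of 0.991. In such bulk tissue, fewer cells of a type and less RNA per cell cannot be told apart.

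For the remaining lists, summed FPKM in KO 2 was divided by that in KO 3. The ratio was 0.722 for T and NK cell markers and 0.789 for neutrophil markers, both imprecise at their low sums. It was 0.840 for endothelial markers, 0.893 for stellate cell and fibroblast markers and 1.44 for erythroid markers.

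The comparison of genotypes turned with the library left out. Over the 18 synthesis enzymes the median log2 difference was 0.11 with all libraries, -0.18 without KO 2 and 0.39 without KO 3. The KO mean of log2(FPKM + 1) was higher in 14 of the 18 with all libraries, in 4 without KO 2 and in 17 without KO 3. The median of all genes tested was 0.06 without KO 2 and 0.08 without KO 3. No member passed limma's test in either fit (smallest adjusted p of a member 0.999 without KO 2 and 0.9999 without KO 3), although 2 members in each had an unadjusted p under 0.05. Among the fits that leave out 1 library, the smallest adjusted p of a member was 0.431, without WT 2.

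**Figure D5:**
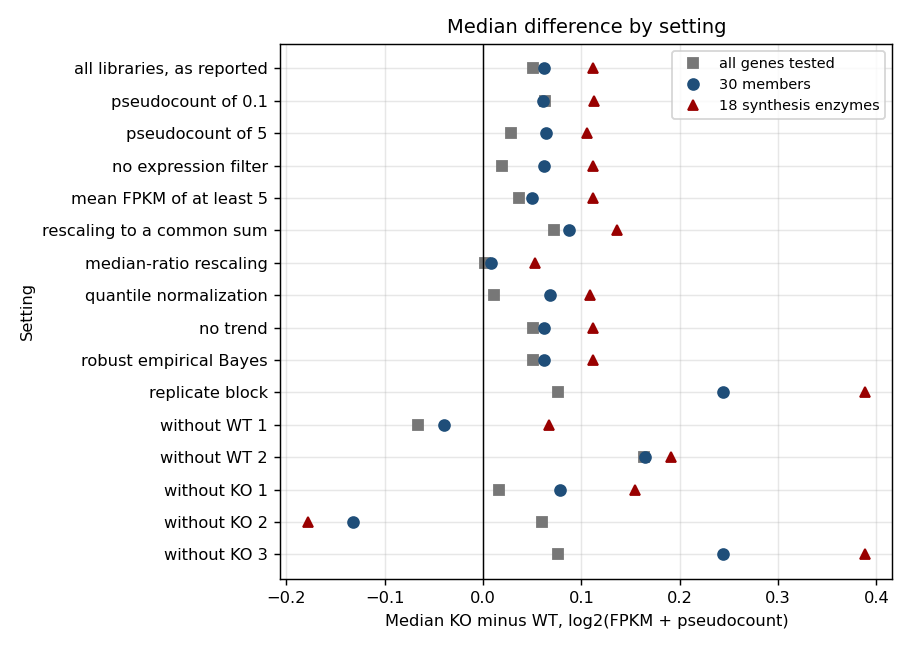
Median KO minus WT difference on the log2 scale (x axis) over all genes tested (grey squares), the 30 genes described (blue circles) and the 18 synthesis enzymes (red triangles) for each setting of the analysis (y axis). The red triangle is at 0.11 with all libraries, at -0.18 without KO 2 and at 0.39 without KO 3.

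Other genes of sterol metabolism were compared as 6 lists, none of which held a gene past limma's test in either direction (adjusted p = 0.999 for each gene named); KO means in these lists are those of log2(FPKM + 1). For all 6 lists, the shares to set beside the counts are those of all genes tested. Of these, 61.4% had a higher KO mean and 15.9% were highest in KO 2. The genes of the isoprenoid branch prenylate proteins or make dolichol and ubiquinone from the same precursors. Of its 13 genes, 9 had a higher and 4 a lower KO mean, and 2 were highest in KO 2, near those shares. Of 10 genes of the LXR response and sterol export, 7 were higher and 3 lower, with 1 highest in KO 2. In that list Pltp, which transfers phospholipid between lipoproteins, measured 9.98 and 7.75 FPKM in WT against 12.16, 13.11 and 13.41 FPKM in KO (log2 difference 0.50, SE 0.18). Abcg5 and Abcg8, which together form the sterol exporter into bile, had log2 differences of -0.34 and -0.35. The KO and WT values of Pltp did not overlap, and those of the exporter genes did.

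Of 11 genes of sterol-regulated degradation at the endoplasmic reticulum, 3 were higher and 8 lower, and 4 were highest in KO 2. Rnf139, Ufd1 and Ube2g2, which ubiquitinate or extract proteins there, had log2 differences of -0.19, -0.15 and -0.10. Of 16 genes of intracellular sterol transfer, 12 were higher and 4 lower, and 3 were highest in KO 2. Osbpl3, an oxysterol-binding protein relative, had WT values of 6.99 and 5.56 FPKM and KO values of 9.99, 8.61 and 10.07 FPKM (log2 difference 0.54, SE 0.19). Osbpl11 and Osbpl10 had log2 differences of 0.32 and 0.24. In the isoprenoid list, Rabggtb and Nus1 had log2 differences of 0.28 and 0.16.

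Of 6 genes of oxysterol synthesis, 3 were tested and all 3 had a lower KO mean. Log2 differences were -0.22 (SE 0.22) for Hsd3b7, -0.21 (SE 0.25) for Cyp27a1 and -0.20 (SE 0.39) for Cyp7b1. All 3 were highest in WT 2, at 31.63, 34.01 and 3.84 FPKM, as were 35.2% of all genes tested. WT 1 lay inside the KO range in Hsd3b7 (22.68 FPKM) and Cyp27a1 (20.62 FPKM), and below it in Cyp7b1 (0.85 FPKM). Ch25h, Cyp46a1 and Sult2b1 were below the filter. Of 7 genes that supply acetyl-CoA and NADPH, 3 were higher and 4 lower, and 4 were highest in KO 2. Acly, ATP citrate lyase, measured 80.0 and 234.65 FPKM in WT against 88.63, 118.64 and 93.04 FPKM in KO, and Pgd and Me1 had log2 differences of -0.30 and -0.34. Acss2, the acetyl-CoA synthetase of the cytosol, was chosen after its values were seen: it had WT values of 21.60 and 38.59 FPKM and KO values of 27.86, 57.33 and 19.89 FPKM. It kept the order of the synthesis enzymes, with KO 2 highest and KO 3 lowest. Srebf1, the gene of the related factor SREBP1, did not, being highest in KO 3 (42.41 FPKM) and at 35.13 FPKM in KO 2; it was also chosen after its values were seen.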

How the data were processed

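Total RNA of 5 liver tumour samples was sequenced. Tools listed, without role or order, in the submitters' processing notes are bcl2fastq 2.0, HISAT2, StringTie, limma and DESeq2, with the build mm10. FPKM values were made by the authors and rounded to 2 decimals, per the file headers; depth is unknown, which leaves counting error unstated. Group means, a log2 fold change, a p-value and a false discovery rate per gene were deposited beside them by the authors; no source used here names the tool behind these.

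Groups and replicate numbers came from the titles. Values were taken as log2(FPKM + 1), which understates changes of low genes, and genes with a mean of at least 1 FPKM were tested (10132 of 22287). The genotypes were compared in R 4.3.3 with limma 3.58.1 (empirical Bayes with trend, 3 residual degrees of freedom, two-sided, Benjamini-Hochberg adjustment over all genes tested, threshold 0.05), after the script was tested on simulated data. Exact permutation of 2 against 3 libraries cannot give a p below 0.1, so it was not used. Members and lists were chosen with earlier results of these data known, and so no list was tested. All 30 members are named, with up to 3 genes per further list by the smallest unadjusted p, of which 1 is not reported here. Alternatives were other pseudocounts, filters, scalings, variance models, a replicate block and leaving out each library. Coordinates are from GENCODE vM21 (GRCm38, the assembly of mm10), where all 30 identifiers were found. Python 3.11.15 and matplotlib 3.10.9 made the figures.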

Additional observations from a re-analysis of the deposited data

How the results depend on the processing

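No member passed limma's test under any of the 15 alternatives. The number of genes called higher in KO, 1 in all, was 0 when the pseudocount was 5, when all genes or only those with a mean of at least 5 FPKM were tested, and after quantile normalization, median-ratio rescaling or scaling to equal sums. It was 2 with robust empirical Bayes, which called 1 gene lower. With 1 library left out, 0 to 3 genes were called higher and 0 to 14 lower. The replicate block called 19 higher and 43 lower; KO 3 is alone in its block, so that fit rests on the other 4 libraries, and the labels give the numbers no shared source. Deviations of same-numbered libraries correlated at 0.088 and -0.241. Under the block the median log2 difference was 0.24 for the members and 0.39 for the synthesis enzymes. With 1 library left out, those medians ranged from -0.13 to 0.24 and from -0.18 to 0.39.

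Some members changed sign. Median-ratio rescaling gave log2 differences of -0.0550 for Fdps, -0.0476 for Cyp51, -0.0094 for Nsdhl, -0.0539 for Dhcr7 and -0.0257 for Insig1. Scaling to equal sums gave 0.0004 for Ebp, quantile normalization -0.0274 for Soat1, and the replicate block 0.1836 for Acat2, 0.1020 for Mvk, 0.0454 for Ebp and 0.1062 for Stard4. With 1 library left out, log2 differences ranged from -0.424 to 0.207 for Acat2, -0.460 to 0.102 for Mvk, -0.0888 to 0.626 for Mvd, -0.257 to 0.788 for Idi1, -0.365 to 0.365 for Fdps, -0.259 to 0.370 for Fdft1, -0.289 to 0.380 for Cyp51, -0.404 to 0.702 for Tm7sf2, -0.103 to 0.493 for Msmo1, -0.287 to 0.396 for Nsdhl, -0.194 to 0.145 for Ebp, -0.0545 to 0.333 for Sc5d and -0.202 to 0.210 for Dhcr7. They ranged from -0.0122 to 0.276 for Srebf2, -0.282 to 0.323 for Insig1, -0.256 to 0.115 for Insig2, -0.496 to 0.0170 for Scap, -0.142 to 0.534 for Mbtps2, -0.248 to 0.106 for Stard4, -0.171 to 0.232 for Soat1, -0.278 to 0.0027 for Npc1 and -0.102 to 0.332 for Npc2. The cause of these turns was not tested.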
